A study of Mus musculus with 21 samples.

Results

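The DNA replication and G1/S genes are a module of 45 genes whose products license replication origins, unwind and copy DNA, supply nucleotides and histones, restore DNA methylation and start S phase. They were taken by symbol from a table of 24091 mouse genes, and all 45 were found. The RNA came from C3H/10T1/2, mesenchymal progenitor cells of mouse embryonic origin kept as a line, whose genotype was H2B E71K, E71Q, E76K, E76Q, E113K, E113Q or H2B wild type (WT). Each of the 7 groups had 3 libraries, and transcript levels were given as TPM, an abundance normalized for length with a fixed sum in every library. The substitutions put lysine (K), which reverses the charge of the glutamate (E), or glutamine (Q), which removes it, at 3 positions of histone H2B. Residue E113 belongs to the acidic patch of the nucleosome surface, and E76 lies where H2B meets H4.

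All groups share the parental line, and an introduced H2B form cannot be told apart from the cells' own H2B genes in these values. The labels name no vector, promoter or independent line for a genotype, so differences between lines and effects of the substitution cannot be told apart. The submitters call the replicates biological and independent, but nothing says whether they were separate cultures, and the p-values reflect only how far these libraries scatter, which can be technical scatter. The samples were bulk RNA, so fewer cells in S phase and less RNA per cell cannot be told apart.

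In G1, origins are licensed when ORC, CDC6 and CDT1 load the MCM ring onto DNA. Cyclin E with its kinase helps to inactivate the retinoblastoma protein, E2F factors turn on the genes of S phase, and CDC45 and GINS join MCM to form the active helicase. The genes of this module are therefore high in dividing cells and low in resting ones, and their transcripts peak together near the G1/S boundary.

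**Figure D1:**
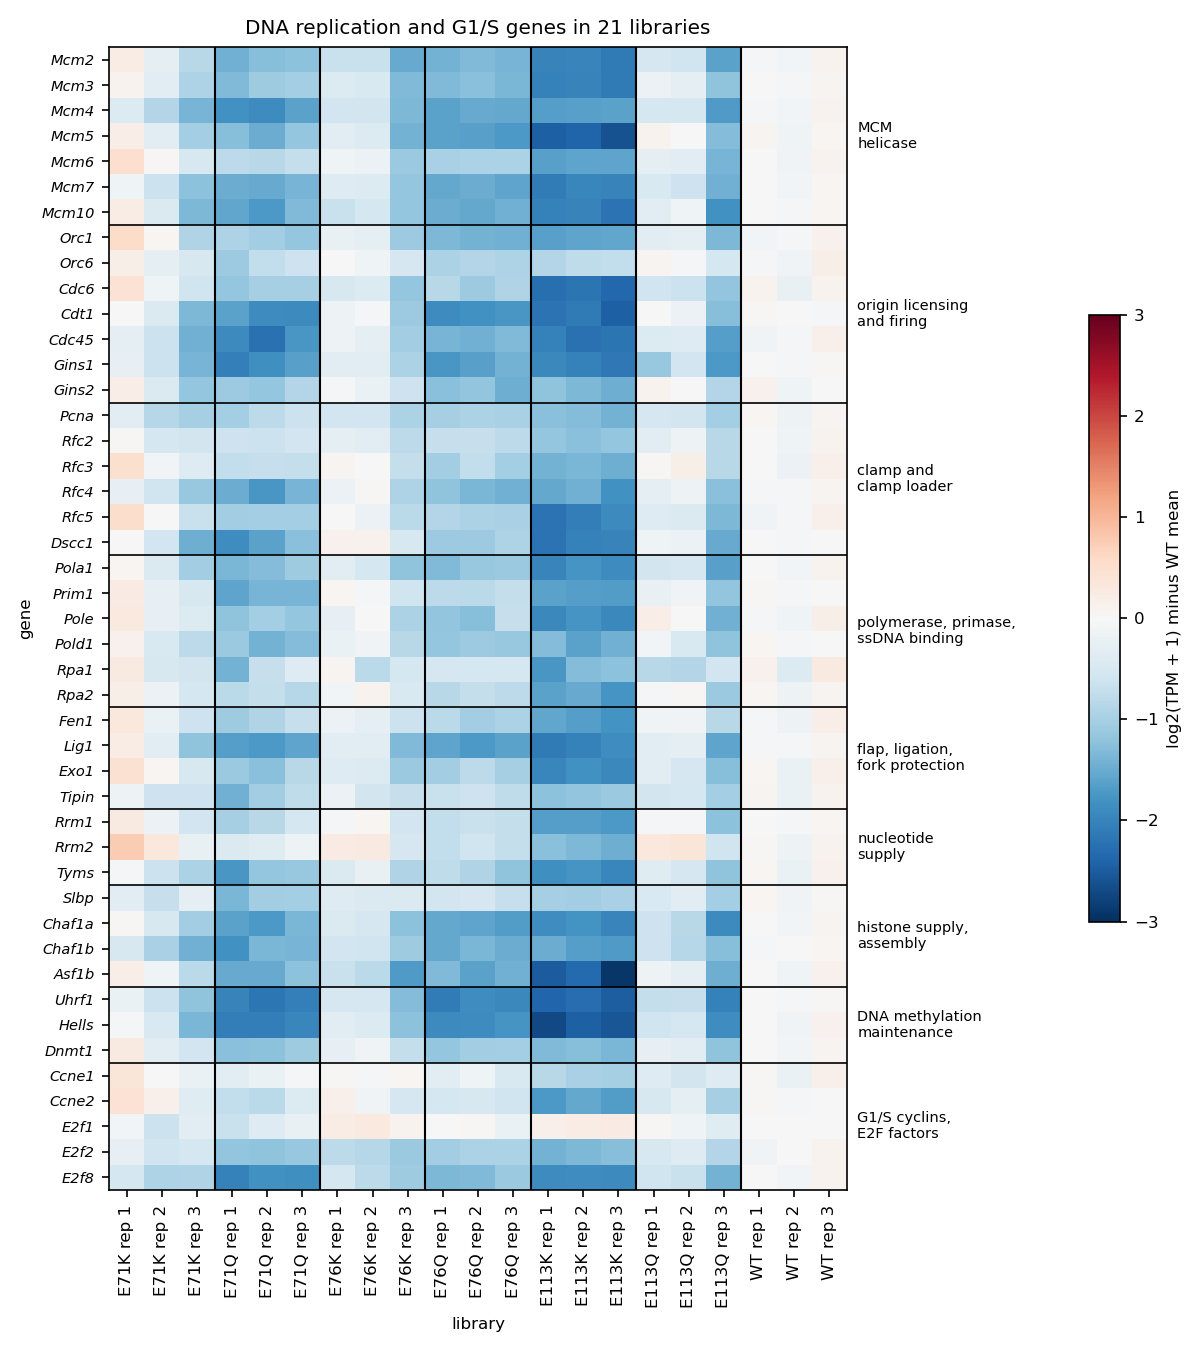
Difference of log2(TPM + 1) from the WT mean for 45 genes (down the page, by role) in 21 libraries (across, by group; rep, replicate), with blue for lower and red for higher. All 3 E113K libraries are blue for every gene except E2f1, and the E71K libraries differ from each other, with replicate 1 often red and replicate 3 blue.

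The libraries carried mesenchymal markers (11 of 12 averaged at least 1 TPM), and Vim, the intermediate filament vimentin, ranged from 2986 to 5947 TPM. Members of that list differed between groups: Thy1 ran from 0 to 134 TPM and Nt5e was at most 0.223 TPM, and 3 of the 11 tested were lower and 2 higher in E71K and in E76Q, 5 and 2 in E71Q, 3 and 4 in E76K, 1 and 5 in E113K, and 2 and 3 in E113Q. Markers of other cell types were low. The summed level of 6 epithelial markers was 2.72 to 5.49 TPM in E71K, 0.622 to 1.55 in E71Q, 1.34 to 1.60 in E76K, 0.896 to 1.37 in E76Q, 0.761 to 0.949 in E113K, 2.67 to 4.32 in E113Q and 11.58 to 13.04 in WT. Epcam was at 0 in 20 and Cldn4 in 21 libraries, both epithelial genes that could be tested, Cdh1 and Krt8, were lower in each mutant than in the shared WT, and their part in the results was not tested. Endothelial markers (5 genes) summed to at most 5.83 TPM and blood cell markers (6 genes) to at most 2.13 TPM in any library. The locus Mir6236 took 2.19% to 30.6% of the TPM of a library, the most in E71K replicate 2, and every other gene is lower by construction where it takes more. On an axis of differences between mates made without the module or G2/M genes (23.9% of the variance within groups), E71K replicate 3, E71Q replicate 1, E76K replicate 3 and E113Q replicate 3 lay apart from their mates.

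All 45 genes averaged at least 1 TPM over the libraries, so all 45 were among the 12192 genes tested, and none was at 0 in any library. A gene is called lower or higher where its Benjamini-Hochberg adjusted p in a limma fit across all tested genes and all 21 libraries is below 0.05. The fit takes 1 spread per gene for all groups. The groups spread unequally, and the SD of the summed level of the 45 genes was 727 TPM in E71K, 571 in E113Q, 470 in E76K and 20.9 in E113K. The SE and p-values can thus be too small for groups that spread widely and too large for tight ones. Fold changes were taken between means of log2(TPM + 1), a scale on which scarce transcripts appear to change less than they do. The limma F test for any difference among the 7 groups called 45 of 45, against 77.1% of all tested genes. Group means were lowest in E113K for 40 of the genes, in E71Q for Mcm4, Slbp, E2f1 and E2f8, and in E76Q for Orc6. They were highest in WT for 36 genes, in E71K for Mcm6, Orc1, Rfc3, Rfc5, Exo1, Rrm2, Ccne1 and Ccne2, and in E76K for E2f1. The summed level of the 45 genes was 1631 to 3066 TPM in E71K, 1201 to 1508 in E71Q, 1552 to 2423 in E76K, 1365 to 1411 in E76Q, 938 to 978 in E113K, 1296 to 2307 in E113Q and 2709 to 3148 in WT. Only E71K reached into the WT range, through replicate 1, and the E113K libraries were the lowest of all 21. The sum of E71K replicate 2 is lowered by construction, since Mir6236 took 30.6% of that library.

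In E113K cells 44 of the 45 genes fell and none was called higher, where 20.7% of all tested genes fell and 30.3% rose. The median log2 fold change of the genes was -1.67, beside 0.13 over all tested genes. The largest falls were those of Asf1b, a histone H3-H4 chaperone, at -2.58 ± 0.32 (SE; limma adjusted p = 4.64e-06), Hells, a chromatin remodeller needed for DNA methylation, at -2.57 ± 0.33 (SE; limma adjusted p = 6.7e-06), and Mcm5, a subunit of the replicative helicase, at -2.49 ± 0.34 (SE; limma adjusted p = 1.36e-05). These correspond to 5.98-fold, 5.95-fold and 5.62-fold lower levels on the log2(TPM + 1) scale. Asf1b stood at 7.79, 8.92 and 5.64 TPM in E113K, against 49.1, 44.6 and 53.1 TPM in WT. The groups were far apart in all 3 genes, with no E113K library near a WT library. The next falls were in Uhrf1 (-2.38), Cdc6 (-2.27), Cdt1 (-2.26), Cdc45 (-2.15), Dscc1 (-2.08), Mcm10 (-2.08) and Rfc5 (-2.06). The smallest fall among those called was that of Orc6, a subunit of the origin recognition complex, at -0.80. All 3 E113K libraries were below all 3 WT libraries for 44 genes, against 30.2% of all tested genes, and the exception was E2f1.

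In E71Q cells 43 of the 45 genes fell and none was called higher, beside 23.5% and 20.7% of all tested genes. The median log2 fold change was -1.18, against 0.00 over all tested genes. Uhrf1, which brings DNA methyltransferase to newly copied DNA, had the largest fall at -2.08 ± 0.30 (SE; limma adjusted p = 2.63e-05), followed by Hells at -2.03 ± 0.33 (SE; limma adjusted p = 8.56e-05) and Cdc45, a part of the active helicase, at -1.97 ± 0.31 (SE; limma adjusted p = 8.02e-05). E2f8 (-1.89), Gins1 (-1.84), Cdt1 (-1.79), Mcm4 (-1.78), Lig1 (-1.65), Dscc1 (-1.57) and Chaf1a (-1.56) came next. Rrm2 (-0.32; limma adjusted p = 0.333) and Ccne1 (-0.19; adjusted p = 0.276) did not pass the test. For 42 genes all E71Q libraries were below all WT libraries, where this held for 31.5% of all tested genes. Without the libraries that lay apart, 41 of the 45 genes were called lower in E71Q. Mir6236 took 21.2% of E71Q replicate 1, which lowers the other genes of that library by construction.

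In E76Q cells 42 of the 45 genes fell and none was called higher, beside 22.4% and 22% of all tested genes. The median was -1.05, against 0.02 over all tested genes. The largest falls were Uhrf1 at -1.96 ± 0.30 (SE; limma adjusted p = 5.27e-05), Hells at -1.85 ± 0.33 (SE; limma adjusted p = 0.000221) and Cdt1, a licensing factor, at -1.81 ± 0.33 (SE; limma adjusted p = 0.000271). Mcm5 (-1.65), Lig1 (-1.64), Chaf1a (-1.60), Gins1 (-1.59), Mcm4 (-1.55), Mcm7 (-1.54) and Mcm10 (-1.49) followed. Those that missed the test were Rpa1 (-0.52; limma adjusted p = 0.14), Ccne1 (-0.30; adjusted p = 0.0799) and E2f1 (-0.05; adjusted p = 0.802). All E76Q libraries lay below all WT libraries for 43 genes, against 35.1% of all tested genes.

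In E113Q cells 22 of the 45 genes fell and none was called higher, where 12.7% of all tested genes fell and 17.9% rose. The median was -0.63, against 0.06 over all tested genes. Uhrf1 at -1.15 ± 0.30 (SE; limma adjusted p = 0.00711), Gins1, a subunit of the GINS complex, at -1.14 ± 0.27 (SE; limma adjusted p = 0.00384) and Chaf1a, the large subunit of chromatin assembly factor, at -1.12 ± 0.29 (SE; limma adjusted p = 0.00682) fell the most. After these came Hells (-1.0), Mcm4 (-0.91), Chaf1b (-0.91), E2f8 (-0.90), Mcm2 (-0.90), Pola1 (-0.89) and Mcm7 (-0.84). The libraries of E113Q were all below those of WT for 34 genes, against 22.6% of all tested genes. Replicate 3 was the lowest E113Q library for 43 of the 45 genes, where it was the lowest for 57.9% of all tested genes. Without that library alone 9 genes were called lower and the median was -0.32. Without WT replicate 1 the count was 12, without WT replicate 3 it was 10, and in a fit of the E113Q and WT libraries alone it was 9. Without the libraries that lay apart in any group, 23 were called lower and Rrm2 was called higher, and when these values were also rescaled 34 were lower.

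In E76K cells 11 of the 45 genes fell and none was called higher, where 9.67% of all tested genes fell and 23.5% rose. The median was -0.47, against 0.16 over all tested genes, a shift that a median-ratio rescaling brings to 0.01. Asf1b at -1.06 ± 0.32 (SE; limma adjusted p = 0.0162), Mcm2, a helicase subunit, at -0.95 ± 0.27 (SE; limma adjusted p = 0.0134) and E2f2, an activating E2F factor, at -0.92 ± 0.16 (SE; limma adjusted p = 0.00026) fell the most. Mcm4 (-0.83), E2f8 (-0.80), Chaf1b (-0.75), Mcm3 (-0.73), Pcna (-0.70), Cdc6 (-0.68), Rfc2 (-0.46) and Slbp (-0.41) were the others called. All E76K libraries were below all WT libraries for 29 genes, against 19.3% of all tested genes. Replicate 3 was the lowest E76K library for 43 of the 45 genes, beside 33.8% of all tested genes. Without it the count was 3, and it was 17 without E71K replicate 3, 19 without E113Q replicate 3, and 6, 7 and 5 without WT replicates 1, 2 and 3. The rescaling gave 18 lower genes and a median of -0.63, leaving out the libraries that lay apart gave 17, and both together gave 32.

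In E71K cells 7 of the 45 genes fell and none was called higher, where 14.2% of all tested genes fell and 12.5% rose, so the module's share called lower was close to that of all genes. The median was -0.37, against 0.00 over all tested genes. Chaf1b, the middle subunit of chromatin assembly factor, at -0.96 ± 0.21 (SE; limma adjusted p = 0.00201), Mcm4 at -0.89 ± 0.28 (SE; limma adjusted p = 0.0233) and E2f8, an atypical repressing E2F factor, at -0.78 ± 0.18 (SE; limma adjusted p = 0.00333) fell the most, and Gins1 (-0.76), Pcna (-0.72), E2f2 (-0.46) and Slbp (-0.43) were the others. All E71K libraries were below all WT libraries for 12 genes, against 17.9% of all tested genes. The summed level spread the most here (SD 727 TPM, n = 3): replicate 1 was the highest of its group for 44 of the 45 genes (35.5% of all tested genes) and replicate 3 the lowest for 40 (12% of all tested genes). Mir6236 took 30.6% of replicate 2, against 3.86% of replicate 1 and 2.35% of replicate 3, which lowers the other genes of replicate 2 by construction. The count was 17 without E71K replicate 1, 4 without E71K replicate 3, 11 without E113Q replicate 3, and 3, 4 and 3 without WT replicates 1, 2 and 3. A fit of the E71K and WT libraries alone called 1 gene. Without the libraries that lay apart, 12 were lower and Rrm2 was higher, with a median of -0.11, and when these values were also rescaled 10 were lower and 10 higher, with a median of 0.02.

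**Figure D2:**
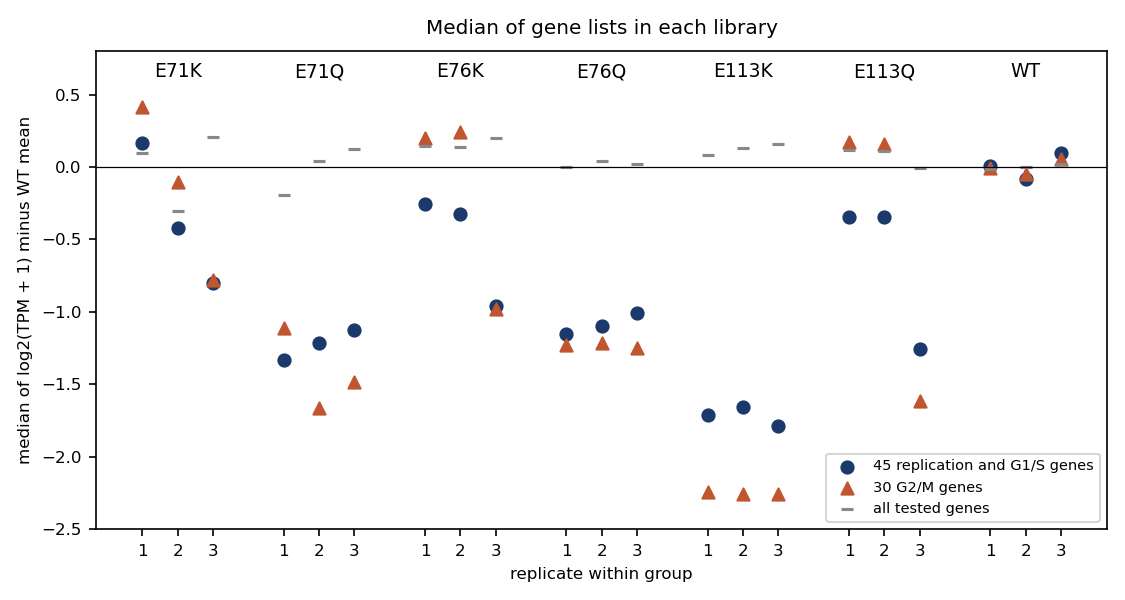
Median difference of log2(TPM + 1) from the WT mean in each of the 21 libraries, for the 45 genes (circles), 30 G2/M genes (triangles) and all tested genes (bars), by group and replicate. The 3 E113K libraries lie between -1.79 and -1.66 for the 45 genes, and the third replicates of E71K (-0.80), E76K (-0.96) and E113Q (-1.26) lie below their mates.

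To show what precedes these genes in the genome, the 180 bases before the start site are printed for 3 genes that fell in E113K and whose window lies wholly before the gene: Mcm6 with E2F letters and CCAAT boxes, Mcm3 with CCAAT boxes alone and Cdt1 with neither. The sequences are RefSeq's (build GRCm38.p6), read 5′ to 3′ on the strand of the gene, with capitals marking matches to the E2F letters TTTCCCGC, TTTCGCGC, TTTGCCGC or TTTGGCGC or to CCAAT, on either strand.
Mcm6, chr1:128359706-128359885, minus strand: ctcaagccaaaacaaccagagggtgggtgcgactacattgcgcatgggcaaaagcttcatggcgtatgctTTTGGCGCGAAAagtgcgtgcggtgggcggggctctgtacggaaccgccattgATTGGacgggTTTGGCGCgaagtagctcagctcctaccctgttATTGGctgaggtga
Mcm3, chr1:20820313-20820492, minus strand: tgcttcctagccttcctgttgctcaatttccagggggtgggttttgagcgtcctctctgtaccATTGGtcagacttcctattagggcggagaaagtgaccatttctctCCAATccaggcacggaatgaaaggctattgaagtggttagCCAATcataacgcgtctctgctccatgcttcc
Cdt1, chr8:122567835-122568014, plus strand: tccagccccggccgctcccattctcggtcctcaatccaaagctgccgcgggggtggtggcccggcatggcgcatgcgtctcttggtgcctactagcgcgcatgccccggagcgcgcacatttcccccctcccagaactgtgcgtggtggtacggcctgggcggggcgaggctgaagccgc
In Mcm6 the run TTTGGCGCGAAA holds a match on each strand, and no base belongs to both an E2F match and a CCAAT box.

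Of the 45 genes 36 had a start site in the RefSeq table, and those named only are Dscc1, Gins1, Gins2, Tipin, Mcm4, Exo1, Pole, Ccne2 and Rfc2. The window of E2f1 lay in its own coding sequence and was left out, as were all such windows. In the 250 bases before the most upstream start in the table, 8 of 35 genes (22.9%) held an E2F match, against 1 of 26 G2/M genes (3.85%) and 519 of 26828 genes in all (1.93%). The 8 were Mcm5, Mcm6, Mcm7, Orc1, Cdc6, Rfc3, Pola1 and Hells. For 10 of the 35 the window reached into the extent that RefSeq gives for the gene, so these windows do not lie wholly before it. Among the 25 whose window lay before the gene, 2 (8.0%) held an E2F match, Mcm6 and Rfc3, against 1 of 16 G2/M genes (6.25%) and 1.6% of all genes with such a window. A CCAAT box was found in 24 of 35 (68.6%), in 21 of 26 G2/M genes (80.8%) and in 34.6% of all genes, and in 18 of the 25 (72.0%). A match is a description of the letters, and nothing was measured here at these sites.

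The MCM helicase genes were the 6 subunits of the ring (Mcm2 to Mcm7) and Mcm10, which helps to activate it. Of these 7 genes, 1 fell in E71K, 7 in E71Q, 3 in E76K, 7 in E76Q, 7 in E113K and 3 in E113Q. Of all tested genes, 14.2% fell in E71K, 23.5% in E71Q, 9.67% in E76K, 22.4% in E76Q, 20.7% in E113K and 12.7% in E113Q. The same shares stand beside the counts of every role below. In roles this small, a count of 1 in E71K or E76K does not set a role apart from all tested genes. The median log2 fold changes of the 7 MCM helicase genes were -0.39 in E71K, -1.32 in E71Q, -0.73 in E76K, -1.49 in E76Q, -2.04 in E113K and -0.75 in E113Q. Mcm5 (Entrez Gene 17218; chromosome 8, 75109468 to 75128439, GRCm38) stood, in TPM, at 94.9, 66.5 and 40.4 in E71K, 33.4, 28.6 and 36.4 in E71Q, 64.9, 61.9 and 30.1 in E76K, 26.6, 25.9 and 24.2 in E76Q, 14.4, 14.7 and 12.6 in E113K, 89.4, 81.5 and 32.8 in E113Q, and 87.0, 75.2 and 85.8 in WT. Its 3 E113K libraries were the lowest of the 21, and the first 2 E113Q libraries were among or above those of WT while the last was far below. Mcm2 stood, in TPM, at 128, 91.5 and 61.3 in E71K, 39.9, 44.5 and 45.9 in E71Q, 69.0, 68.5 and 37.7 in E76K, 40.2, 43.2 and 41.3 in E76Q, 26.5, 27.0 and 24.4 in E113K, 76.8, 72.2 and 35.6 in E113Q, and 108, 104 and 117 in WT. Its E71K libraries lay above, below and far below WT, and those of every other mutant were all below WT. The E71K library just below WT is replicate 2, of which Mir6236 took 30.6%, so its place beside WT is uncertain. The remaining subunits had E113K falls between -2.08 for Mcm10 and -1.60 for Mcm6. Mcm4 was the subunit whose E71Q libraries (28.8, 27.4 and 33.6 TPM) overlapped its E113K libraries (32.8, 32.9 and 33.6 TPM), beside 103, 98.9 and 112.9 TPM in WT.

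Origin licensing and firing was represented by Orc1, Orc6, Cdc6, Cdt1, Cdc45, Gins1 and Gins2. Of these 7, 1 fell in E71K, 7 in E71Q, 1 in E76K, 7 in E76Q, 7 in E113K and 2 in E113Q. The counts in E71K and E76K stand beside 14.2% and 9.67% of all tested genes. Cdc6, the ATPase that brings MCM to ORC (Entrez Gene 23834; chromosome 11, 98907709 to 98923942), stood, in TPM, at 19.4, 12.9 and 9.10 in E71K, 5.78, 6.56 and 6.66 in E71Q, 9.91, 10.4 and 5.80 in E76K, 7.59, 6.16 and 7.16 in E76Q, 2.18, 2.30 and 1.98 in E113K, 8.97, 8.77 and 5.64 in E113Q, and 15.5, 12.0 and 15.4 in WT. The E113K libraries formed a tight group at the bottom, well below E71Q and E76Q, and its fall in E113K was -2.27 ± 0.23 (SE; limma adjusted p = 4.48e-07). Cdt1 (Entrez Gene 67177; chromosome 8, 122568015 to 122573130) stood, in TPM, at 56.2, 41.4 and 21.8 in E71K, 18.0, 14.7 and 14.5 in E71Q, 51.3, 54.0 and 26.2 in E76K, 14.7, 15.4 and 16.2 in E76Q, 11.4, 12.3 and 9.54 in E113K, 55.9, 49.7 and 22.8 in E113Q, and 58.5, 56.0 and 55.4 in WT. Here E71Q, E76Q and E113K all lay far below WT, while the first 2 libraries of E76K and of E113Q lay close to it. Cdc45 stood, in TPM, at 28.9, 22.3 and 12.4 in E71K, 8.67, 6.70 and 9.91 in E71Q, 32.1, 29.3 and 16.7 in E76K, 12.8, 12.5 and 13.7 in E76Q, 7.93, 6.72 and 7.06 in E113K, 26.4, 26.8 and 10.6 in E113Q, and 33.0, 34.1 and 39.9 in WT. E71Q and E113K overlapped at the bottom, and E71K spread from just below WT down to the level of E76Q. Orc1, the ATPase subunit of the origin recognition complex, was scarce and stood, in TPM, at 12.3, 8.34 and 3.81 in E71K, 3.75, 3.41 and 3.05 in E71Q, 6.79, 6.46 and 3.27 in E76K, 2.53, 2.39 and 2.30 in E76Q, 1.92, 2.02 and 2.06 in E113K, 6.10, 6.34 and 2.58 in E113Q, and 7.58, 7.69 and 8.90 in WT. E71K replicate 1 was its highest library, above all of WT, and the E113K libraries its lowest. Gins2 and Orc6 had smaller E113K falls of -1.34 and -0.80, and 67.3% of the exonic bases of Gins2 also lie in exons of Gse1, so its level is uncertain without the strand.

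The sliding clamp Pcna and the genes of its loaders (Rfc2 to Rfc5 and Dscc1) numbered 6. Of these, 1 fell in E71K, 6 in E71Q, 2 in E76K, 6 in E76Q, 6 in E113K and 2 in E113Q. Pcna (Entrez Gene 18538; chromosome 2, 132249286 to 132253180) was the most abundant of the module and stood, in TPM, at 406, 279 and 252 in E71K, 249, 293 and 323 in E71Q, 341, 340.4 and 259 in E76K, 252, 260.5 and 255 in E76Q, 209.6, 206 and 189.6 in E113K, 353, 344 and 250.4 in E113Q, and 529.7, 456 and 532 in WT. All mutant libraries lay below WT, and the E113K libraries lay lowest, with a fall of -1.32 ± 0.17 (SE; limma adjusted p = 7.08e-06). Rfc4 stood, in TPM, at 39.9, 31.6 and 21.3 in E71K, 16.4, 13.6 and 17.7 in E71Q, 42.6, 49.4 and 24.7 in E76K, 20.4, 17.9 and 17.1 in E76Q, 16.0, 16.9 and 12.95 in E113K, 39.7, 42.8 and 19.5 in E113Q, and 47.1, 46.0 and 50.9 in WT. E71Q, E76Q and E113K lay far below WT, and E76K had 1 library within the WT range. Dscc1, a subunit of an alternative loader, fell in E113K (log2 fold change -2.08) and Rfc5 (log2 fold change -2.06), and Rfc2 had the smallest fall of this role, -1.19.

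The genes of the replicative polymerases (Pola1, Pole, Pold1), of primase (Prim1) and of the protein that coats single-stranded DNA (Rpa1, Rpa2) numbered 6. None was called in E71K or E76K, while 6 fell in E71Q, 5 in E76Q, 6 in E113K and 2 in E113Q. Pole, the catalytic subunit of the leading strand polymerase, stood, in TPM, at 15.7, 10.4 and 9.27 in E71K, 4.87, 5.71 and 5.08 in E71Q, 10.4, 12.5 and 6.03 in E76K, 4.97, 4.60 and 7.40 in E76Q, 2.55, 2.98 and 2.53 in E113K, 14.7, 12.4 and 3.99 in E113Q, and 12.0, 11.5 and 14.4 in WT. Its E113K libraries were the lowest 3, and E113Q ran from above WT in replicate 1 to below E71Q in replicate 3. Prim1 fell in E71Q (log2 fold change -1.46) and in E113K (log2 fold change -1.65), with levels of 23.4, 27.0 and 26.8 TPM in E71Q and 23.03, 22.3 and 22.2 TPM in E113K, against 74.6, 70.2 and 72.9 TPM in WT. Rpa1 was uneven in WT itself, at 215, 148 and 236 TPM, and its log2 fold change in E113K was -1.42 ± 0.28 (SE; limma adjusted p = 0.000442).

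Flap removal, ligation, exonuclease and fork protection were represented by Fen1, Lig1, Exo1 and Tipin. None of the 4 was called in E71K or E76K, while 4 fell in E71Q, 4 in E76Q, 4 in E113K and 2 in E113Q. Lig1, the ligase that joins Okazaki fragments (Entrez Gene 16881; chromosome 7, 13277175 to 13311426), stood, in TPM, at 130.3, 89.4 and 47.96 in E71K, 34.7, 33.2 and 37.0 in E71Q, 90.2, 88.7 and 44.1 in E76K, 36.6, 33.0 and 36.3 in E76Q, 24.999, 26.9 and 30.04 in E113K, 89.6, 92.1 and 36.7 in E113Q, and 109.5, 108 and 118 in WT. E71Q, E76Q and E113K lay far below WT with E113K lowest, and the third libraries of E71K, E76K and E113Q lay between these and their own mates or among them. Fen1, the flap endonuclease, stood, in TPM, at 52.0, 36.2 and 26.5 in E71K, 19.4, 21.8 and 25.4 in E71Q, 36.4, 33.5 and 26.3 in E76K, 23.5, 19.7 and 21.1 in E76Q, 13.4, 12.6 and 11.3 in E113K, 38.4, 38.2 and 22.8 in E113Q, and 40.2, 37.1 and 47.998 in WT. E113K was again lowest, below E71Q and E76Q, but 84.2% of its exonic bases are shared with exons of other genes, Tmem258 among them, so its level is uncertain. Exo1, an exonuclease, was at 0.935, 1.15 and 0.972 TPM in E113K against 6.80, 5.54 and 7.31 TPM in WT, a log2 fold change of -1.90.

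Nucleotide supply was represented by the large and small subunits of ribonucleotide reductase (Rrm1, Rrm2) and by thymidylate synthase (Tyms). None of the 3 was called in E71K or E76K, while 2 fell in E71Q, 3 in E76Q, 3 in E113K and 1 in E113Q. Rrm2 (Entrez Gene 20135; chromosome 12, 24708254 to 24714146) stood, in TPM, at 97.6, 71.3 and 48.6 in E71K, 41.9, 44.1 and 51.3 in E71Q, 68.2, 68.9 and 40.1 in E76K, 33.6, 37.6 and 34.5 in E76Q, 23.4, 21.9 and 19.9 in E113K, 71.5, 74.1 and 37.6 in E113Q, and 58.9, 51.1 and 61.8 in WT. It differed from most of the module: 2 libraries each of E71K, E76K and E113Q were above all WT libraries, while the E113K and E76Q libraries were all below. Its log2 fold change was 0.28 in E71K (limma adjusted p = 0.457), 0.01 in E76K (0.997) and 0.03 in E113Q (0.946), and without the libraries that lay apart it was 0.54 in E71K (0.00367) and 0.34 in E113Q (0.039). Its call in E76Q (-0.68; limma adjusted p = 0.039) was lost with no filter on low values (0.0574) and with Mir6236 left out (0.0652). The uncalled values in E76K and E113Q turned to -0.15 and -0.03 after median-ratio rescaling. Tyms stood, in TPM, at 79.7, 52.6 and 42.2 in E71K, 24.1, 36.2 and 37.2 in E71Q, 61.2, 70.7 and 43.6 in E76K, 48.6, 43.6 and 35.1 in E76Q, 22.3, 23.4 and 20.6 in E113K, 64.2, 57.8 and 35.1 in E113Q, and 86.6, 72.3 and 89.9 in WT. All libraries of E71Q, E76Q, E113K, E76K and E113Q lay below WT, and those of E71K in part.

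Histone supply and chromatin assembly were represented by Slbp, which binds the stem-loop of replication-dependent histone mRNAs, the large and middle subunits of chromatin assembly factor (Chaf1a, Chaf1b) and Asf1b. Of these 4, 2 fell in E71K, 4 in E71Q, 3 in E76K, 4 in E76Q, 4 in E113K and 3 in E113Q. Slbp (Entrez Gene 20492; chromosome 5, 33640055 to 33652574) stood, in TPM, at 67.5, 51.7 and 67.9 in E71K, 31.7, 39.9 and 40.9 in E71Q, 63.9, 62.005 and 61.97 in E76K, 56.6, 58.3 and 51.8 in E76Q, 41.5, 40.3 and 41.9 in E113K, 60.7, 65.5 and 41.1 in E113Q, and 87.7, 77.5 and 86.3 in WT. All mutant libraries lay below WT, and those of E71Q and E113K and the third of E113Q were lowest. Set against the same WT libraries, and called lower each time, its log2 fold changes were -0.43 in E71K, -1.15 in E71Q, -0.41 in E76K, -0.58 in E76Q, -1.0 in E113K and -0.61 in E113Q. Chaf1a stood, in TPM, at 54.4, 37.6 and 24.9 in E71K, 16.7, 15.3 and 19.8 in E71Q, 38.7, 37.0 and 21.97 in E76K, 17.6, 16.9 and 15.9 in E76Q, 13.7, 14.4 and 12.7 in E113K, 33.8, 29.4 and 13.4 in E113Q, and 52.4, 50.1 and 56.0 in WT. Its E71Q, E76Q and E113K libraries and the third E113Q library were lowest, but 52.5% of its exonic bases are shared with Ubxn6, which leaves its level uncertain. Chaf1b shares no exonic base with another gene and had 26.2, 18.3 and 12.8 TPM in E71K, 12.4, 10.9 and 10.6 TPM in E113K and 35.4, 36.2 and 38.4 TPM in WT, with every E71K library below WT.

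DNA methylation maintenance was represented by Uhrf1, Hells and the methyltransferase Dnmt1. None of the 3 was called in E71K or E76K, while 3 fell in each of E71Q, E76Q, E113K and E113Q. Uhrf1 (Entrez Gene 18140; chromosome 17, 56303337 to 56323486) stood, in TPM, at 75.5, 55.5 and 37.0 in E71K, 20.8, 18.4 and 20.3 in E71Q, 60.7, 61.0 and 34.8 in E76K, 19.7, 23.1 and 22.1 in E76Q, 15.9, 17.1 and 14.9 in E113K, 52.8, 53.4 and 20.4 in E113Q, and 87.7, 84.5 and 89.0 in WT. All libraries of all mutants were below WT, and E71Q, E76Q, E113K and the third E113Q library lay between 14.9 and 23.1 TPM at the bottom. Hells (Entrez Gene 15201; chromosome 19, 38930262 to 38970470) stood, in TPM, at 58.3, 43.3 and 22.7 in E71K, 13.5, 13.5 and 14.8 in E71Q, 47.3, 45.2 and 25.003 in E76K, 15.4, 15.5 and 17.0 in E76Q, 8.40, 10.2 and 9.26 in E113K, 39.3, 41.1 and 15.7 in E113Q, and 59.3, 56.1 and 65.4 in WT. The order of groups was like that of Uhrf1, with E113K lowest and apart from E71Q and E76Q. Dnmt1 stood, in TPM, at 68.2, 44.97 and 38.1 in E71K, 23.1, 23.7 and 26.8 in E71Q, 47.3, 52.4 and 34.3 in E76K, 24.95, 27.2 and 27.7 in E76Q, 22.1, 22.98 and 21.3 in E113K, 47.4, 44.4 and 24.2 in E113Q, and 56.5, 53.7 and 60.3 in WT. Its changes were smaller, at -1.18 in E71Q, -1.06 in E76Q, -1.32 in E113K and -0.60 in E113Q.

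The G1/S cyclins and E2F factors were Ccne1 and Ccne2, the E-type cyclins, the activating factors E2f1 and E2f2 and the repressing factor E2f8. Of these 5, 2 fell in E71K, 4 in E71Q, 2 in E76K, 3 in E76Q, 4 in E113K and 4 in E113Q. E2f8 (Entrez Gene 108961; chromosome 7, 48866429 to 48882073) stood, in TPM, at 12.2, 9.13 and 9.20 in E71K, 3.70, 4.40 and 4.37 in E71Q, 12.2, 10.1 and 8.07 in E76K, 6.46, 6.58 and 7.78 in E76Q, 4.18, 4.25 and 4.05 in E113K, 11.5, 10.9 and 6.12 in E113Q, and 17.8, 17.2 and 19.4 in WT. Every mutant library was below WT, with E71Q and E113K overlapping at the bottom. Ccne2 stood, in TPM, at 21.3, 17.4 and 11.9 in E71K, 8.94, 8.43 and 11.4 in E71Q, 17.2, 14.4 and 10.5 in E76K, 10.4, 10.7 and 9.97 in E76Q, 4.02, 4.72 and 4.16 in E113K, 10.9, 12.7 and 7.32 in E113Q, and 16.0, 15.004 and 15.4 in WT. Its E113K libraries were well below all others, and those of E71K and E76K straddled WT. Ccne1 stood, in TPM, at 14.9, 11.4 and 9.85 in E71K, 8.79, 9.71 and 11.1 in E71Q, 11.7, 10.9 and 11.9 in E76K, 8.85, 10.3 and 8.03 in E76Q, 5.91, 5.34 and 5.16 in E113K, 8.39, 7.39 and 8.51 in E113Q, and 11.7, 9.85 and 12.7 in WT. E113K was lowest again, E113Q lay just below WT, and the libraries of E71Q and E76Q overlapped those of WT. E2f2 averaged 0.432 ± 0.0598 TPM in E113K, against 2.66 ± 0.271 TPM in WT (mean ± SD of 3 libraries each).

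E2f1 (Entrez Gene 13555; chromosome 2, 154559400 to 154569892), an activating E2F factor, did not follow the module. It stood, in TPM, at 32.5, 21.6 and 27.6 in E71K, 21.3, 26.4 and 29.3 in E71Q, 40.3, 42.7 and 37.4 in E76K, 35.0, 35.7 and 29.8 in E76Q, 38.6, 40.2 and 41.5 in E113K, 35.3, 31.4 and 26.8 in E113Q, and 35.1, 34.4 and 34.3 in WT. All E113K and all E76K libraries were above all WT libraries, E71K and E71Q were below them, and E76Q and E113Q overlapped them. Such a gap upward from WT was found for 45.8% of all tested genes in E113K and 44.6% in E76K. Its log2 fold change in E113K was 0.21 ± 0.14 (SE; limma adjusted p = 0.227), which missed the threshold, while a fit of the E113K and WT libraries alone gave 0.21 with an adjusted p of 0.00341. In E76K it was 0.21 ± 0.14 (SE; limma adjusted p = 0.269), and in a fit of those libraries alone the adjusted p was 0.0312. Among the comparisons with WT, E2f1 was called in E71Q, where it fell with a log2 fold change of -0.43 ± 0.14 (SE; limma adjusted p = 0.02). Without the libraries that lay apart the E71Q value was -0.31 (adjusted p = 0.0633). The E71Q call held after rescaling (adjusted p = 0.000703), with Mir6236 left out (0.00403) and in a fit of those libraries alone (0.038). In E71K it was -0.35 ± 0.14 (SE; limma adjusted p = 0.0725), and it passed after rescaling (adjusted p = 0.0055), without the libraries that lay apart (0.0394) or when Mir6236 was removed (0.0361). A fit of the E71K and WT libraries alone gave E2f1 an adjusted p of 0.273. The scaling bears on this gene, since the median of all tested genes was itself 0.13 higher in E113K and 0.16 higher in E76K. After median-ratio rescaling its log2 fold change was 0.07 in E113K and 0.05 in E76K.

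**Figure D3:**
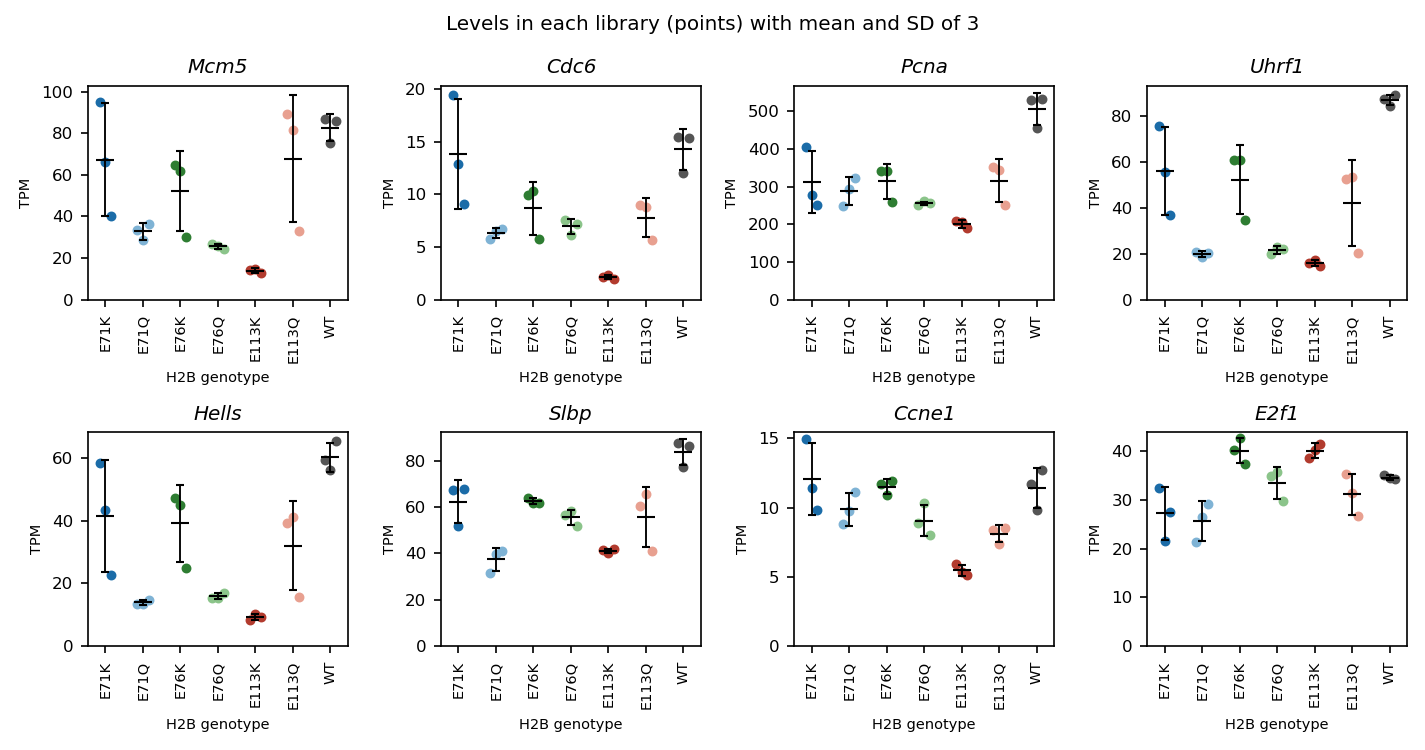
TPM in each library (points), with the mean and SD of 3 libraries, for Mcm5, Cdc6, Pcna, Uhrf1, Hells, Slbp, Ccne1 and E2f1 in the 6 mutants and WT. E113K averages 13.9 TPM for Mcm5 against 82.7 in WT, whereas E2f1 averages 40.1 TPM in E113K against 34.6 in WT.

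**Figure D4:**
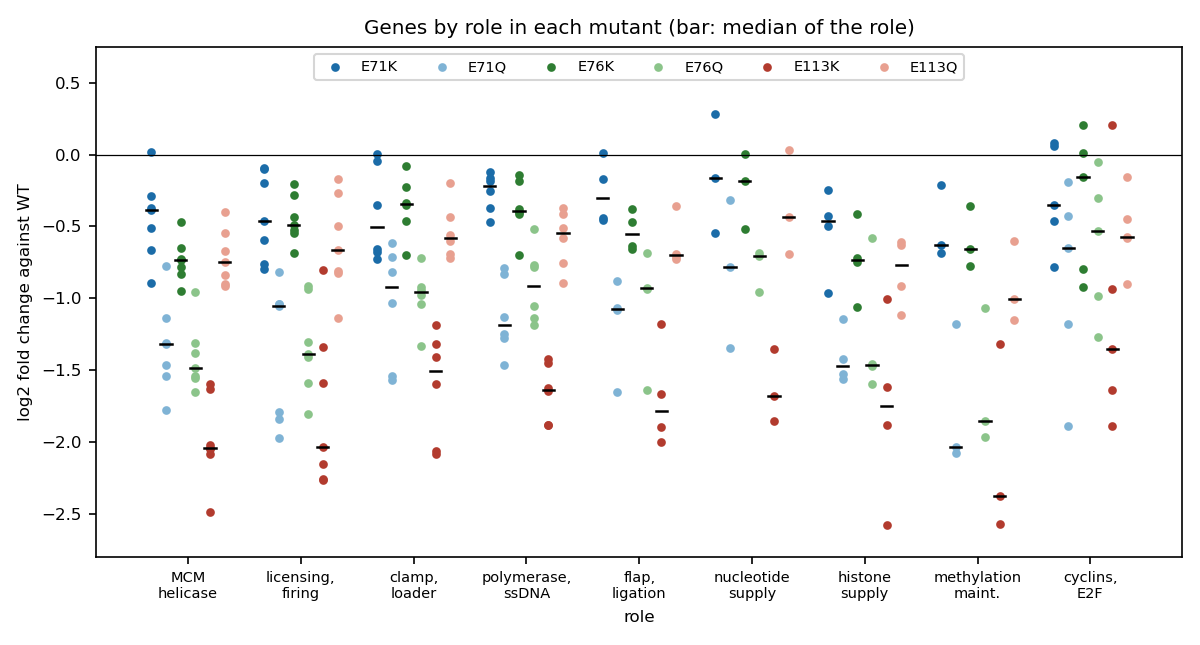
Log2 fold change against WT of each of the 45 genes (points) by role, with a bar at the median of the role in each of the 6 mutants. E113K has the lowest median in each of the 9 roles, from -2.38 for DNA methylation maintenance to -1.35 for the cyclins and E2F factors, and the points above 0 belong to E2f1, Rrm2, Ccne1, Ccne2, Exo1, Mcm6 and Rfc3.

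The lysine and glutamine forms of a residue were compared directly, without WT. At E71 the lysine form was higher than the glutamine form for 31 of the 45 genes and lower for none, beside 12.8% and 12.3% of all tested genes. The median difference was 0.88, against 0.00 over all tested genes. Hells differed the most, at 1.41 ± 0.33 (SE; limma adjusted p = 0.00506), followed by Uhrf1 at 1.4 ± 0.30 (SE; limma adjusted p = 0.00301) and Prim1 at 1.30 ± 0.23 (SE; limma adjusted p = 0.000699). Lig1 (1.22), Cdt1 (1.19), Asf1b (1.18), Cdc45 (1.18), E2f8 (1.11), Exo1 (1.08) and Gins1 (1.08) came next. All E71K libraries were above all E71Q libraries for 35 genes, against 14.1% of all tested genes. The count was 9 without E71K replicate 1 and 16 without E71Q replicate 2, and a fit of these 6 libraries alone called 3. Without the libraries that lay apart it was 41.

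At E76 the lysine form was higher than the glutamine form for 20 of the 45 genes and lower for none, beside 23.4% and 8.46% of all tested genes. The median difference was 0.64, against 0.14 over all tested genes, and after rescaling 0.49 against 0.00. Cdt1 at 1.38 ± 0.33 (SE; limma adjusted p = 0.00367), Hells at 1.19 ± 0.33 (SE; limma adjusted p = 0.00983) and Uhrf1 at 1.19 ± 0.30 (SE; limma adjusted p = 0.00553) differed the most. Gins1 (1.05), Gins2 (1.02), Rfc4 (0.98), Lig1 (0.98), Dscc1 (0.96), Mcm5 (0.93) and Cdc45 (0.90) followed. For 30 genes all E76K libraries were above all E76Q libraries, against 40.9% of all tested genes. The count was 9 after rescaling, 10 with Mir6236 left out, 12 with no filter on low values and 39 without the libraries that lay apart. It was 6 without E76K replicate 1 or 2, and 9, 11 and 10 without E76Q replicates 1, 2 and 3.

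At E113 the direction was the other way: the lysine form was lower than the glutamine form for 39 of the 45 genes and higher for none, beside 13.3% and 14.6% of all tested genes. The median difference was -1.13, against 0.04 over all tested genes. Mcm5 at -2.09 ± 0.34 (SE; limma adjusted p = 0.000237), Asf1b at -1.95 ± 0.32 (SE; limma adjusted p = 0.000247) and Cdt1 at -1.77 ± 0.33 (SE; limma adjusted p = 0.000705) differed the most. The next were Hells (-1.57), Mcm3 (-1.51), Dscc1 (-1.48), Pole (-1.46), Cdc6 (-1.46), Rrm2 (-1.39) and Rfc5 (-1.34). All E113K libraries were below all E113Q libraries for 41 genes, against 22.4% of all tested genes, and above them for E2f1 alone, against 30.4%. The genes that did not pass were Mcm4, Rpa1, Tipin, Slbp, Chaf1a and E2f1, of which E2f1 was at 0.36 (limma adjusted p = 0.0623). E2f1 passed, and so 1 gene was called higher, after rescaling, with Mir6236 left out, or without E71K replicate 1, E71K replicate 2, E71Q replicate 1 or E113Q replicate 1.

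**Figure D5:**
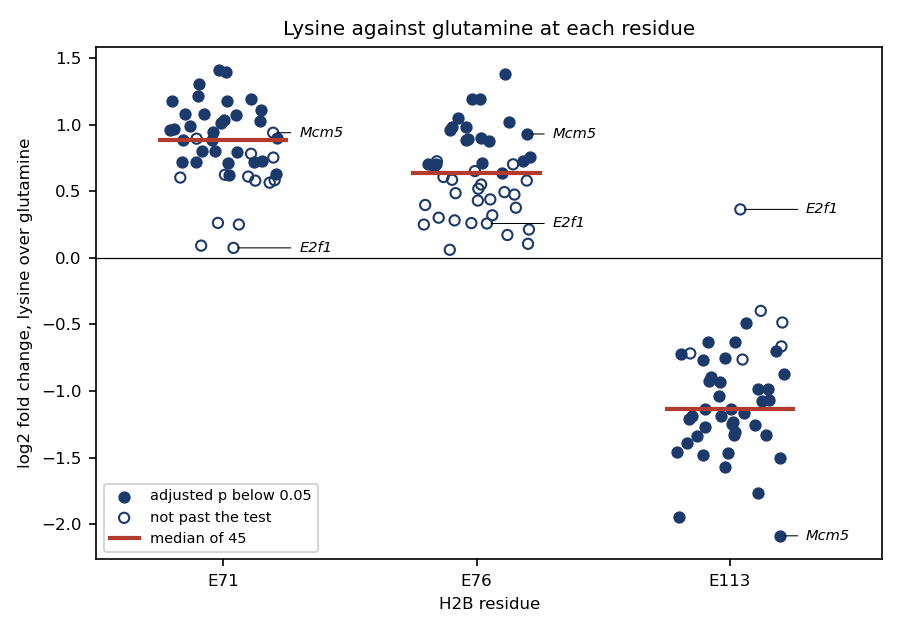
Log2 fold change of lysine over glutamine for each of the 45 genes at E71, E76 and E113, filled where the adjusted p is below 0.05, with a red line at the median. The medians are 0.88 at E71, 0.64 at E76 and -1.13 at E113, and at E113 E2f1 is the point above 0.

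The difference between these differences was tested as an interaction in the same limma fit. The lysine minus glutamine difference was more negative at E113 than at E71 for 44 of the 45 genes, against 16.1% of all tested genes, and more negative at E113 than at E76 for 41, against 19.8%. None was called more positive in either, beside 16.6% and 9.65%. Against E71 the largest were Asf1b at -3.13 ± 0.45 (SE; limma adjusted p = 7.45e-05), Mcm5 at -3.03 ± 0.48 (SE; limma adjusted p = 0.000179) and Hells at -2.98 ± 0.46 (SE; limma adjusted p = 0.000153), and against E76 they were Cdt1 at -3.15 ± 0.46 (SE; limma adjusted p = 7.87e-05), Mcm5 at -3.02 ± 0.48 (SE; limma adjusted p = 0.000167) and Hells at -2.76 ± 0.46 (SE; limma adjusted p = 0.000281). Both interactions use the E113K and E113Q libraries, so they are not independent of each other. Between E76 and E71 E2f2 alone passed in this fit, at -0.66 ± 0.23 (SE; limma adjusted p = 0.0451), where 6.3% of all tested genes were more negative and 15.4% more positive. That count was 0 without any of E71K replicate 1, E71Q replicates 1, 2 and 3, E76K replicate 3, E76Q replicates 1, 2 and 3 or WT replicates 1 and 2, 2 without E71K replicate 2, 3 without E71K replicate 3 and 4 without E113Q replicate 3. It was 5 after rescaling, 7 without the libraries that lay apart and 31 with both, and 0 with a replicate block, so how far E76 and E71 differ depends on these settings.

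The third libraries of E71K, E76K and E113Q held less of the module than their mates. Each library was compared with the mean of its mates on the log2(TPM + 1) scale. In E71K replicate 3 stood -0.74 from its mates at the median of the 45 genes and 0.33 over all tested genes, while replicate 1 stood at 0.73 and 0.12. Replicate 2 of E71K stood at 0.02 and -0.47. Mir6236 took 30.6% of that library, which lowers its other genes by construction and so raises its mates beside it. How much of the place of replicate 1 comes from this was not tested. In E76K replicate 3 stood at -0.69 and 0.06, and in E113Q replicate 3 at -0.94 and -0.13. In WT, E76Q and E113K no library stood farther than 0.14 from its mates at the median of the 45 genes. G2/M genes were lower in the same 3 libraries, with medians over WT of -0.78 in E71K replicate 3, -0.98 in E76K replicate 3 and -1.62 in E113Q replicate 3, and of 0.42, 0.20 and 0.17 in the first libraries of these groups.

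Other genes of the same pathway were read from lists beside the module. Of 40 other replication genes, 1 fell in E71K, 23 in E71Q, 5 in E76K, 26 in E76Q, 35 in E113K and 11 in E113Q, and 3 rose in E76K, 1 in E113K and 1 in E113Q. Of all tested genes, 14.2% fell in E71K, 23.5% in E71Q, 9.67% in E76K, 22.4% in E76Q, 20.7% in E113K and 12.7% in E113Q. The shares that rose were 23.5% in E76K, 30.3% in E113K and 17.9% in E113Q. In E113K the largest falls of this list were Dut (-2.35), a dUTPase, Gmnn (-2.34), the licensing inhibitor geminin, Chtf18 (-2.22), a clamp loader subunit, and Tk1 (-2.20), thymidine kinase. Dut was also the gene of this list with the largest fall in E71K (-1.42), E71Q (-1.84), E76K (-1.47), E76Q (-1.93) and E113Q (-1.49), each against the same WT libraries. The median of the list in E113K was -1.21, closer to 0 than the -1.67 of the module.

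Of 27 tested E2F, RB and cyclin-CDK genes, 16 fell and 2 rose in E113K, 19 fell and 3 rose in E71Q, 17 fell and 1 rose in E76Q, and 9 fell and 1 rose in E113Q. Of all tested genes, 20.7% fell and 30.3% rose in E113K, and 23.5% and 20.7% in E71Q. These shares were 22.4% and 22% in E76Q and 12.7% and 17.9% in E113Q. Of the 27 genes, 3 fell and 1 rose in E71K, and 7 fell and 2 rose in E76K. The shares of all tested genes were 14.2% and 12.5% in E71K and 9.67% and 23.5% in E76K. Those that fell the most in E113K were Ccna2, cyclin A (-2.39), E2f7, another atypical repressor (-2.08), Mybl2, a factor of the late cell cycle (-2.05), and Rbl1, the pocket protein p107 (-1.72). Between E113K and E113Q, Rb1, the retinoblastoma gene, was lower in E113K (-1.19) and Cdkn1b, an inhibitor of cyclin E kinase, was higher (1.05). Cdkn1a, another inhibitor of this kinase, went the other way, at 169, 168 and 171 TPM in E113K against 256, 250 and 241 TPM in E113Q. Ccnd1, cyclin D1, was lower in E76Q than in WT (-1.53) and higher in E76K than in E76Q (1.44).

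Of 30 G2/M genes, none passed in E71K, 28 fell in E71Q, 2 in E76K, 23 in E76Q, 30 in E113K and 2 in E113Q, and none rose. Of all tested genes, 14.2% fell in E71K, 23.5% in E71Q, 9.67% in E76K, 22.4% in E76Q, 20.7% in E113K and 12.7% in E113Q. The medians of the G2/M list were -0.13 in E71K, -1.41 in E71Q, -0.14 in E76K, -1.25 in E76Q, -2.23 in E113K and -0.40 in E113Q. The largest falls in E113K were those of Top2a, the topoisomerase that untangles chromosomes (-2.76), Hmmr (-2.62), and Aurkb (-2.58) and Bub1 (-2.56), both kinases of chromosome segregation. Between the lysine and glutamine forms 21 were higher in E71K, 9 were higher in E76K and 30 were lower in E113K. The shares of all tested genes called in these directions were 12.8%, 23.4% and 13.3%. In E71K, E76K and E113Q the module had 7, 11 and 22 genes lower while the G2/M list had 0, 2 and 2, and whether the lists differ was not tested.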

How the data were processed

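The deposited values were TPM, transcript abundances scaled to a fixed sum, per gene and library, made by the authors. Per the submitters' processing notes Salmon, featureCounts 1.4.4, DESeq and the mm10 build were used, and which of them made the TPM values is not given in the sources used here. Per the labels' protocols RNA was column-purified and made into NEBNext Ultra II libraries, and strandedness is not given. TPM summed to 999897 to 999931 in each library and keep no depth, so the reads behind a value are unknown. A deposited table of group means differed from the means of the libraries by at most 3.35e-10 and was not used further.

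Groups were taken from the labels. Of 24091 genes, the 12192 with a mean of at least 1 TPM were transformed to log2(TPM + 1) and fitted with limma 3.58.1 in R 4.3.3 (group means over 21 libraries, variances moderated along an intensity trend, with 14 residual degrees of freedom and 3.19 of the prior). Contrasts were each mutant against WT, K against Q at each residue, the difference of these differences between residues, and an F test over the 7 groups. P-values were adjusted by Benjamini-Hochberg over all tested genes, with a threshold of 0.05. The code was tested on simulated data in which all groups had the same spread per gene, unlike the real libraries. For E71K against WT it recovered 23.9% of 1.5-fold, 65.7% of 2-fold and 93.9% of 4-fold changes. A gene that was not called is therefore not shown to be unchanged. No pair of libraries held identical values.

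The 45 genes and the lists beside them were chosen with earlier results of these data known. By rule, the 3 called genes with the largest change in each direction of each comparison have full statistics, up to 7 more have fold changes, and levels by library are given for 22 genes of all roles. Of other lists, up to 4 called genes with the largest change are named in a comparison, and Cdkn1a is given beside Cdkn1b. Alternatives were pseudocounts of 0.1 and 5, a mean of at least 5 TPM or no filter, median-ratio rescaling on 8056 genes, Mir6236 left out, no trend, only the libraries compared, a replicate block, each library left out, and the libraries that lie apart left out together. Those were the farthest library of each group spanning more than 10 on the first principal component of within-group differences. That axis left out the module and the G2/M genes but kept the other replication genes. Leaving these libraries out also narrows the spread shared by all groups. For Rrm2 in E113K the limma adjusted p went from 0.000337 to 2.19e-07, though no E113K or WT library was removed. Higher counts in that setting are therefore not an independent check. Gene positions and promoters are RefSeq's (GRCm38.p6). Promoter windows run before the most upstream start in the promoter table, which can lie inside the gene's whole extent. By GENCODE vM21, 17 of the 45 genes share exonic bases with another gene, and Fen1, Gins2 and Chaf1a share most of theirs.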

Additional observations from a re-analysis of the deposited data

Results flagged for a closer look

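By the interaction test, which cannot tell lines from substitutions, the lysine minus glutamine difference at E113 was unlike those at E71 and E76. It was more negative at E113 than at E71 for 44 of the 45 genes, with the largest interactions in Asf1b (-3.13), Mcm5 (-3.03) and Hells (-2.98). It was more negative at E113 than at E76 for 41 genes, led by Cdt1 (-3.15), Mcm5 (-3.02) and Hells (-2.76). Between E76 and E71 the interaction passed for 1 gene, E2f2 (-0.66), whose level was at most 2.95 TPM in any library. That count was 0 on leaving out any of several single libraries and with a replicate block, 5 after rescaling, 7 without the libraries that lie apart and 31 with both. Groups of 3 libraries are too small for the test of a lone sample far from its mates.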

How the results depend on the processing

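Across 405 fold changes of single genes and 32 settings, 12023 of 12933 values kept their side of the threshold, 561 fell below it, 345 passed it and 4 reversed. A value was counted as reversed where its direction changed and the gene was called before or after the change. A change of direction between uncalled values was counted as kept, as for Rrm2 in E76K and E113Q after rescaling. The 4 were in E71K after rescaling together with leaving out the libraries that lie apart, a setting chosen after seeing the data: Cdc6 0.27, Orc1 0.42, Rfc5 0.39 and Rrm1 0.18. That setting gave 10 higher genes in E71K, 32 lower in E76K, 34 lower and 1 higher in E113Q, 39 higher in E76K over E76Q, 1 higher in E113K over E113Q and 31 lower for E76 against E71. Leaving those libraries out alone gave 12 lower and 1 higher in E71K, 17 lower in E76K, 1 higher in E113Q, 39 higher in E76K over E76Q, and 7 for E76 against E71. Rescaling alone gave 18 lower in E76K, 9 higher in E76K over E76Q, 1 higher in E113K over E113Q and 5 for E76 against E71. Leaving out Mir6236 gave 10, 1 and 4 for the last 3 of these. No filter gave 12 higher in E76K over E76Q. A pseudocount of 5 or a mean of at least 5 TPM gave 0 for E76 against E71. Fitting only the groups compared gave 1 lower in E71K, 9 lower in E113Q, 3 higher in E71K over E71Q, and 1 higher in each of E76K and E113K. The cause was not tested. With each library left out in turn, the lower genes numbered 3 to 17 in E71K, 38 to 43 in E71Q, 3 to 19 in E76K, 37 to 43 in E76Q, 44 in E113K and 9 to 24 in E113Q. The K minus Q counts were 9 to 41 at E71, 6 to 27 at E76, and 28 to 43 lower and 0 to 1 higher at E113. The interactions ran 0 to 4 for E76 against E71, 42 to 44 for E113 against E71 and 41 to 43 for E113 against E76. The deviations of same-numbered libraries had a median correlation of -0.001 (range -0.174 to 0.416, 13 of 63 pairs over 0.1). For libraries of different numbers the median was -0.001 (range -0.405 to 0.294, 15 of 126 pairs over 0.1). At the median, replicate numbers thus did not pair the samples, and 7 of 21 libraries correlated best with their own number. Whether some libraries of the same number share a batch was not tested. With a replicate block the lower genes were 7 in E71K, 13 in E76K and 26 in E113Q, and 0 for E76 against E71. TPM hold no depth, so counting error of scarce genes such as E2f2, Exo1 and Orc1 cannot be given. With 3 libraries a group, the counts in E71K, E76K and E113Q moved by over 1.5 times with single libraries, while those in E71Q, E76Q and E113K did not.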
